A study of Homo sapiens with 4 samples.

Results

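The gene set described here comprised 42 listed nuclear names whose products copy, transcribe, process or degrade the nucleic acids of mitochondria, or regulate the building of new mitochondria. Members were chosen by name and not by a rule on their measured values, though with earlier results of these data known. Of the 42 names, 41 were matched to an identifier among the 60880 genes of the count table. HSD17B10P1 matched no identifier in the tables used and was not analysed here. All 41 matched members passed the filter on low counts, with between 17 and 6696 reads per library. RNA-Seq libraries came from LNCaP95, a prostate cancer subline of LNCaP that grows without androgen, and from LN95(KO), the same subline with UGT2B17 knocked out by CRISPR. UGT2B17 is a glucuronosyltransferase that inactivates androgens. LNCaP95 (genotype WT) gave 2 libraries, replicates 1 and 2, and LN95(KO) (genotype UGT2B17 KO) gave 2, replicates 3 and 4. Both lines grew in RPMI1640 with charcoal-stripped serum and were untreated, and RNA was enriched with oligo(dT). How many knockout clones were used was not given, and the series text names LNCaP as the parent of the knockout where the labels name LN95.

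Mitochondria carry a small circular genome of their own, but nearly all of the proteins that maintain and express it are encoded in the nucleus and imported. POLRMT transcribes both strands into long precursors, which are cut at their tRNAs, polyadenylated, kept stable by RNA-binding proteins and finally degraded, while POLG and its helpers copy the DNA. Nuclear factors such as NRF1, GABPA and ESRRA, with coactivators of the PGC-1 family, are known to set the expression of many of these genes.

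Each library held 17330338 to 18813193 gene reads, and UGT2B17 itself changed by -7.04 on the log2 scale (SE 0.10, adjusted p 1.18e-18, edgeR). Expression is given as counts or as CPM (counts scaled to a common library size, with the cpm function and TMM factors of edgeR), and changes as log2 of LN95(KO) over LNCaP95. Fits used the quasi-likelihood test of edgeR, adjusted by the Benjamini-Hochberg method over 15626 genes. A gene rose or fell in the sense used here at an adjusted p under 0.05, and was called where its fold change also exceeded 2. A count of 0 allows up to 3 reads, or 0.163 to 0.169 CPM, counting error only. Reads not aligned made 3.85% and 3.96% of a LNCaP95 library against 8.05% and 7.71% of a LN95(KO) library. All 10 prostate luminal markers were detected, with KLK2, KLK3 and TMPRSS2 among those called higher and FOLH1 called lower. Summed basal markers were at 0.163 and 0.164 CPM in LNCaP95 against 1.02 and 1.26 in LN95(KO), endothelial markers at 0.433 and 0.437 against 2.77 and 3.18 with CDH5 at 0 in every library, and leukocyte markers at 0.108 and 0.109 against 0.226 and 0.1096 with CD68 and CD3E at 0. Neuroendocrine markers stood at 3.47 and 4.20 against 2.37 and 2.36 CPM with CHGA at 0. Fibroblast markers, mostly COL1A1, were at 30.0 and 29.5 against 34.5 and 32.1 with DCN at 0. Within these sums, KRT14 (1 and 2 reads against 17 and 20) and VWF (8 and 8 against 49 and 58) were called higher. NCAM1 (19 and 32 reads against 0 and 1) and LUM (24 and 19 against 0 and 0) were called lower. The 6 cell cycle markers were all called higher, from a summed 154 and 146 CPM to 675 and 814, and their part in the results below was not tested.

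Most members differed little between the lines. Of the 41, 4 were called (9.76%), the exonuclease MGME1 and the RNase P subunit PRORP higher and the oligoribonuclease REXO2 and the transcription factor NRF1 lower. Of all genes tested, 18.0% were called, 8.86% higher and 9.13% lower, so calls among the members were fewer than the background share. Without the fold criterion 21 members passed (51.2%), against 59.8% of all genes. The members that passed were mostly higher in LN95(KO), with 18 higher (43.9%, against 29.8% of all genes) and 3 lower (7.32%, against 30.1%). The CPM of the groups did not overlap for 29 members (70.7%), against 79.8% of all genes. The median change of the members was 0.16 (range -1.30 to 1.28), beside -0.01 for all genes, and their median absolute change was 0.20 beside 0.37. By sign alone 31 members were higher (75.6%, against 49.4% of all genes) and 10 lower. In bulk libraries, fewer cells of a kind and less RNA per cell cannot be told apart.

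**Figure D1:**
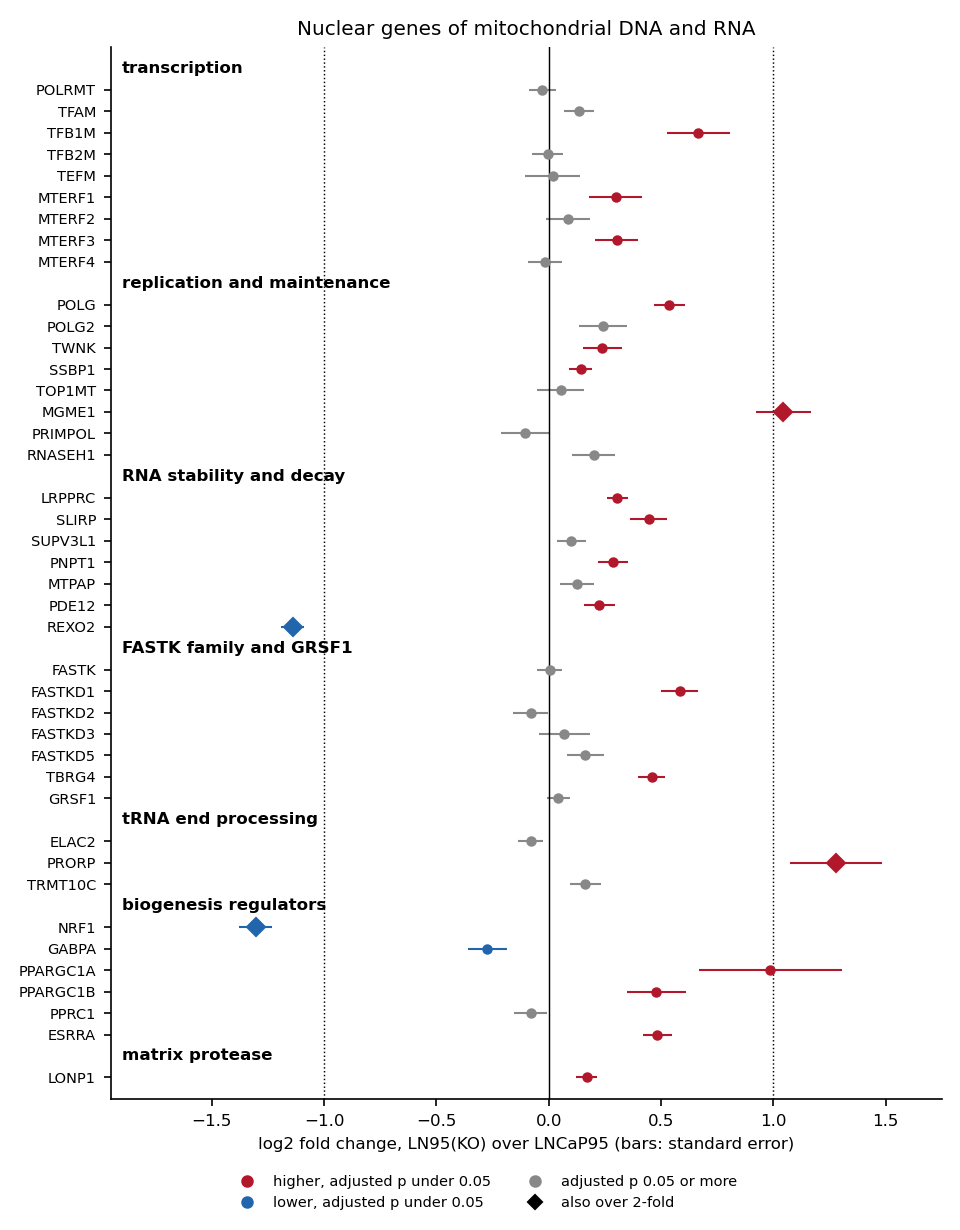
Log2 fold change of LN95(KO) over LNCaP95 for the 41 members, grouped by role; points are estimates, bars standard errors and dotted lines a 2-fold change. MGME1 and PRORP lie past the upper line, REXO2 and NRF1 past the lower line, and the other 37 lie between them.

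The 6 biogenesis regulators moved in both directions. PPARGC1A, PPARGC1B and ESRRA were higher (50%, against 29.8% of all genes). NRF1 and GABPA were lower (33.3%, near the 30.1% of all genes). NRF1 (ENSG00000106459.14_3, chr7:129251561-129396922, plus strand, GRCh37, 15 exon blocks), a DNA-binding activator of many nuclear genes for mitochondria, was read 1140 and 1199 times in LNCaP95 against 437 and 489 times in LN95(KO). Both LNCaP95 libraries were well above both LN95(KO) libraries. The mean fell from 63.6 ± 2.61 to 25.7 ± 1.49 CPM (mean ± SD over 2 libraries in each group), which is -1.30 on the log2 scale (SE 0.07, adjusted p 6.16e-11, edgeR). Per kilobase of its canonical transcript the level was 18.1 CPM in LNCaP95 and 7.32 in LN95(KO). GABPA, the DNA-binding subunit of the ETS-type factor also known as nuclear respiratory factor 2, was a smaller and less certain fall. It had 659 and 765 reads in LNCaP95 against 533 and 619 in LN95(KO), or -0.27 on the log2 scale (adjusted p 0.0114, edgeR). Its groups did not overlap in CPM, but adjusted p was 0.222 without LNCaP95 replicate 2 (-0.16) and 0.142 without LN95(KO) replicate 3 (-0.19), and 0.0873 with DESeq2. Other genes cover 12.1% of the exon bases of GABPA, most of all ATP5PF, which changed by 0.31.

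ESRRA (ENSG00000173153.13_3, chr11:64072969-64084215, plus strand, GRCh37, 8 exon blocks), an orphan nuclear receptor that works with PGC-1 coactivators, had 822 and 858 reads in LNCaP95 against 1121 and 1176 in LN95(KO). The LN95(KO) libraries were both higher. Its level rose from 45.7 ± 1.63 to 63.9 ± 0.782 CPM (SD, n = 2 each), or 0.48 on the log2 scale (SE 0.06, adjusted p 4.06e-06, edgeR). PPARGC1B, the coactivator PGC-1beta, had 132 and 127 reads against 174 and 179 and rose by 0.48 (adjusted p 0.00423, edgeR), though its adjusted p was 0.103 with DESeq2. PPARGC1A, which encodes PGC-1alpha, was the least expressed member, at 0.156 CPM per kilobase in LNCaP95 and 0.309 in LN95(KO). It had 19 and 17 reads in LNCaP95 against 26 and 44 in LN95(KO), so LN95(KO) replicate 4 stood above the other 3 libraries. Its change of 0.99 (SE 0.32, adjusted p 0.0133, edgeR) became 0.59 without that library (adjusted p 0.237), 0.91 without LNCaP95 replicate 2 (adjusted p 0.0549) and 1.30 without LN95(KO) replicate 3, and adjusted p was 0.190 with DESeq2. PPRC1, the third coactivator of the family, had 651 and 618 reads against 588 and 586 and a log2 ratio of -0.08 (adjusted p 0.368, edgeR).

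Since NRF1 fell, the promoters of the members were searched for its letters. RefSeq promoter windows on GRCh38.p14 were held for 36 members, each running from 250 bases before the gene start to 50 after it, 300 bases in all. This is a later build than that of the counts. MTERF3, TWNK, TOP1MT, FASTKD5 and NRF1 had no entry. The letters GCGCANGCG, taken on both strands, occurred in 8 of the 36 (22.2%), in 8.05% of all 27305 promoters and in 14.99% of the 11041 promoters of tested genes. The stretches around the matches are shown because these genes are the members that carry the letters of the factor that fell. Each is 60 bases, read 5′ to 3′ on the strand of its gene, with the NRF1 letters of either strand in capitals. On the plus strand lie TFAM (chr10:58385322-58385381), ESRRA (chr11:64305405-64305464) and REXO2 (chr11:114439432-114439491). On the minus strand lie TFB1M (chr6:155314582-155314641), TFB2M (chr1:246566244-246566303), POLRMT (chr19:633525-633584), POLG2 (chr17:64497034-64497093) and MTPAP (chr10:30349314-30349373).
TFAM: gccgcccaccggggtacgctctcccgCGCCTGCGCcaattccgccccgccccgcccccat
TFB1M: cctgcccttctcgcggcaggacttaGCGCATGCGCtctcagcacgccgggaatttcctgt
TFB2M: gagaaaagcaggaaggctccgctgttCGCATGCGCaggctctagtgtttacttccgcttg
POLRMT: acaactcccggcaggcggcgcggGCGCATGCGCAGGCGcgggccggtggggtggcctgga
POLG2: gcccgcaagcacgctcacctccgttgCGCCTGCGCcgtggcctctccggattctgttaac
MTPAP: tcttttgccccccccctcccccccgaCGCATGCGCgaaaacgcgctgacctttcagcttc
ESRRA: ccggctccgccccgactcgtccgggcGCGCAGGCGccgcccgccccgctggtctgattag
REXO2: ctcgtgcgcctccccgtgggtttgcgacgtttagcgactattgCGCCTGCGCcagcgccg
Capitals longer than 9 bases, in POLRMT and TFB1M, are overlapping matches on the 2 strands, 3 in POLRMT and 2 in TFB1M. The match in REXO2 begins after the gene start, and the other 7 genes had their matches in the 250 bases before it.

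The 8 genes with NRF1 letters went different ways. TFB1M and ESRRA rose, REXO2 fell, and TFAM, TFB2M, POLRMT, POLG2 and MTPAP did not pass. Their median change was 0.13, against 0.17 for the 28 members without the letters, of which 14 rose and GABPA fell. Of all tested genes with the NRF1 letters, 28.82% rose and 32.45% fell. Over all tested genes with a promoter the medians with and without the letters were -0.02 and -0.00. The GABPA letters CCGGAAGT were found in 9 members (25.0%, against 4.44% of all promoters and 8.70% of those of tested genes), namely MTERF4, PDE12, TRMT10C, MTERF1, SSBP1, ELAC2, TEFM, POLRMT and GABPA itself. Of these, 3 rose (PDE12, MTERF1 and SSBP1), 1 fell (GABPA) and 5 did not pass. Of all tested genes with the GABPA letters, 29.27% rose and 29.38% fell. The median change was 0.02 for the 9 members with these letters. It was 0.20 for the 27 members without them, of which 13 rose and REXO2 fell. This contrast was not tested. Over all tested genes with a promoter the medians with and without the GABPA letters were -0.00 and -0.01. The ESRRA letters TCAAGGTCA occurred in 0 members and in 0.359% of all promoters. The E-box CACGTG was found in PDE12, PPARGC1A, REXO2 and LONP1 (11.1%, against 7.43% of all promoters and 10.1% of those of tested genes), and the YY1 letters AAGATGGC in MTERF4, FASTK, PPRC1, SLIRP and MGME1 (13.9%, against 3.03% and 5.32%). A match describes letters in these windows and is not a binding site.

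**Figure D2:**
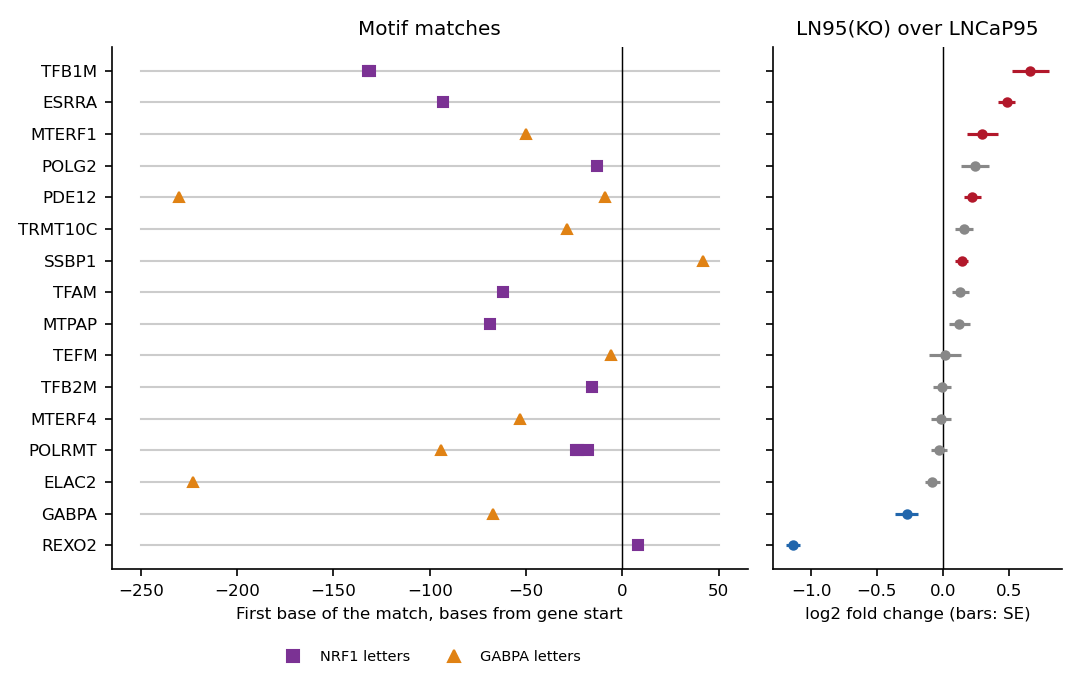
Left, position of each match to the NRF1 or GABPA letters in bases from the gene start (0, negative before it) for the 16 members with one; right, their log2 fold change with its standard error (red rose, blue fell, grey did not pass). Genes with NRF1 letters run from TFB1M (0.67) to REXO2 (-1.14).

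Among the 7 genes of RNA stability and decay, 4 rose (57.1%, against 29.8% of all genes). REXO2 fell (14.3%, against 30.1%), and the group median was 0.23. REXO2 (ENSG00000076043.9_5, chr11:114310157-114321001, plus strand, GRCh37, 10 exon blocks) encodes the exonuclease that degrades the shortest RNA fragments left by RNA decay. It was counted 3517 and 3485 times in LNCaP95 against 1507 and 1602 times in LN95(KO). Replicates were close to each other and the groups far apart. The mean fell from 190 ± 0.196 to 86.5 ± 1.87 CPM (SD, n = 2 each), which is -1.14 on the log2 scale (SE 0.05, adjusted p 3.64e-12, edgeR), the smallest adjusted p of any member. In LNCaP95 it was also the most expressed member per length, at 176 CPM per kilobase, followed by SSBP1 at 170. In LN95(KO) it stood at 80.1, below SSBP1 (188), SLIRP (139), LONP1 (119) and FASTK (95.2).

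LRPPRC and SLIRP form a complex that protects mitochondrial mRNAs, and both rose. LRPPRC (ENSG00000138095.18_2, chr2:44113363-44223365, minus strand, GRCh37, 35 exon blocks) had 4849 and 4766 reads in LNCaP95 against 5618 and 5993 in LN95(KO). Both LN95(KO) libraries were higher, and the mean went from 261 ± 1.77 to 323 ± 7.77 CPM (SD, n = 2 each), or 0.30 on the log2 scale (SE 0.05, adjusted p 2.57e-05, edgeR). SLIRP had 746 and 665 reads against 841 and 1037 and rose by 0.44 (adjusted p 0.000211, edgeR). It was highest in LN95(KO) replicate 4. Other genes cover 14.8% of its exon bases, most of all C14orf178, which had at most 3 reads in a library. PNPT1, the polynucleotide phosphorylase of the mitochondrial degradosome, rose by 0.29 (955 and 899 reads against 1029 and 1181), while SUPV3L1, the helicase of the same complex, overlapped between groups (0.10, adjusted p 0.196, edgeR). PDE12, which shortens poly(A) tails, rose by 0.23 (690 and 676 reads against 761 and 800), with an adjusted p of 0.0724 without LNCaP95 replicate 2 (0.21) and 0.115 with DESeq2. MTPAP, the poly(A) polymerase, stood at 0.13 (adjusted p 0.174, edgeR). Other genes cover 32.9% of its exon bases, most of all GOLGA2P6, which had 0 reads.

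Of the 8 genes of replication and maintenance, 4 rose (50%, against 29.8% of all genes), 0 fell (against 30.1%) and the median was 0.22. MGME1 (ENSG00000125871.13_3, chr20:17949661-17971765, plus strand, GRCh37, 5 exon blocks), a nuclease that trims single-stranded DNA ends during mitochondrial DNA replication, had 162 and 183 reads in LNCaP95 against 306 and 390 in LN95(KO). All LN95(KO) values were above all LNCaP95 values, and LN95(KO) replicate 4 was the highest. Its mean rose from 9.38 ± 0.859 to 19.3 ± 2.89 CPM (SD, n = 2 each), which is 1.04 on the log2 scale (SE 0.12, adjusted p 1.13e-06, edgeR). Without LN95(KO) replicate 4 it stood at 0.89, and without LNCaP95 replicate 1 at 0.95, both short of a 2-fold change. POLG (ENSG00000140521.13_5, chr15:89848429-89878092, minus strand, GRCh37, 19 exon blocks), the catalytic subunit of the mitochondrial DNA polymerase, had 638 and 675 reads against 898 and 964. It went from 35.7 ± 1.62 to 51.8 ± 1.48 CPM (SD, n = 2 each), or 0.54 on the log2 scale (SE 0.07, adjusted p 3.36e-06, edgeR). The groups were clearly apart. Other annotated genes cover 14.99% of its exon bases, most of all POLGARF, a reading frame within the same transcripts. POLGARF had no entry in the count table.

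Other replication genes moved less. TWNK, the replicative helicase, rose by 0.24 (379 and 402 reads against 434 and 467), with an adjusted p of 0.190 without LNCaP95 replicate 1 (0.19) and 0.0821 without LN95(KO) replicate 4 (0.21), 0.218 with DESeq2 and 0.0539 with upper-quartile factors. SSBP1, the single-stranded DNA binding protein, rose by 0.14 (2142 and 2101 reads against 2203 and 2374), which no longer passed without LNCaP95 replicate 1 (0.15), LNCaP95 replicate 2 (0.13) or LN95(KO) replicate 4 (0.11), nor with DESeq2 (adjusted p 0.134) or upper-quartile factors (0.0911). The remaining 4 did not pass, among them POLG2, the accessory subunit of the polymerase (0.24, adjusted p 0.0622, edgeR), and RNASEH1, which removes RNA primers (0.20, adjusted p 0.0789, edgeR). POLG2 passed without LN95(KO) replicate 4 (0.37, adjusted p 0.0138) and RNASEH1 without LN95(KO) replicate 3 (0.29, adjusted p 0.0274). TOP1MT, the mitochondrial topoisomerase, stood at 0.05 and PRIMPOL, a primase and polymerase, at -0.10, and both overlapped between groups. TOP1MT turned to -0.11 without LN95(KO) replicate 4 and PRIMPOL to 0.03 without LN95(KO) replicate 3. PRIMPOL shares 18.6% of its exon bases with other genes, and strand was not used in counting. The largest overlap was with CENPU, which was itself higher (258 and 215 reads against 922 and 1109). Of the exon bases of RNASEH1, 17.1% lie under other annotated genes, most of all ENSG00000286905, which had no entry in the count table.

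Of the 9 transcription genes, 3 rose (33.3%, near the 29.8% of all genes), 0 fell and the median was 0.09. TFB1M (ENSG00000029639.10_2, chr6:155577268-155635627, minus strand, GRCh37, 11 exon blocks), which methylates the small ribosomal RNA of mitochondria, had 102 and 112 reads in LNCaP95 against 162 and 170 in LN95(KO). Both LN95(KO) libraries were above both LNCaP95 libraries. The mean rose from 5.82 ± 0.416 to 9.23 ± 0.115 CPM (SD, n = 2 each), or 0.67 on the log2 scale (SE 0.14, adjusted p 0.000544, edgeR). Other genes cover 38.7% of its exon bases, most of all TIAM2, which had 88 and 103 reads against 87 and 82. MTERF3 (ENSG00000156469.8_4), of the termination factor family, had 303 and 332 reads against 389 and 376. It went from 17.3 ± 1.21 to 21.3 ± 0.972 CPM (SD, n = 2 each), or 0.30 on the log2 scale (SE 0.09, adjusted p 0.0112, edgeR). Its adjusted p was 0.137 without LNCaP95 replicate 1 (0.23) and 0.0574 without LN95(KO) replicate 3 (0.26), and 0.141 with DESeq2. MTERF1, which binds a termination site in the mitochondrial genome, rose by 0.30 (230 and 298 reads against 305 and 330), and its LNCaP95 replicate 1 was low. Without that library the change was 0.12 (adjusted p 0.4999), and it did not pass either without LN95(KO) replicate 3 (0.34) or replicate 4 (0.27), with DESeq2 (adjusted p 0.226) or with upper-quartile factors (0.0643).

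The core of the transcription machinery stayed close to 0. POLRMT, the mitochondrial RNA polymerase, had 1145 and 1169 reads against 1073 and 1144 and a log2 ratio of -0.03 (adjusted p 0.695, edgeR). TFB2M, which opens the promoter with it, had 869 and 830 against 782 and 875 (-0.00), and TEFM, the elongation factor, 187 and 175 against 177 and 181 (0.02). These groups overlapped, and the signs of all 3 turned under at least 1 alternative. TFAM, which packages mitochondrial DNA and bends its promoters, had 804 and 783 reads against 851 and 851. The groups did not overlap, with a log2 ratio of 0.13 (SE 0.07, adjusted p 0.0898, edgeR) that passed under scaling by library totals (0.19, adjusted p 0.0205). MTERF2 (0.09) and MTERF4 (-0.02), also of the termination factor family, overlapped between groups. MTERF2 turned to -0.02 without LNCaP95 replicate 2, and MTERF4 to 0.04 without that library, to 0.02 without LN95(KO) replicate 4 and to 0.04 under library totals. Other genes cover 51.0% of the exon bases of MTERF4, 11.6% of those of MTERF2 and 20.5% of those of TEFM. The largest overlaps were, in that order, with SNED1 (-0.60), TMEM263 (-0.41) and a gene at 0 reads.

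**Figure D3:**
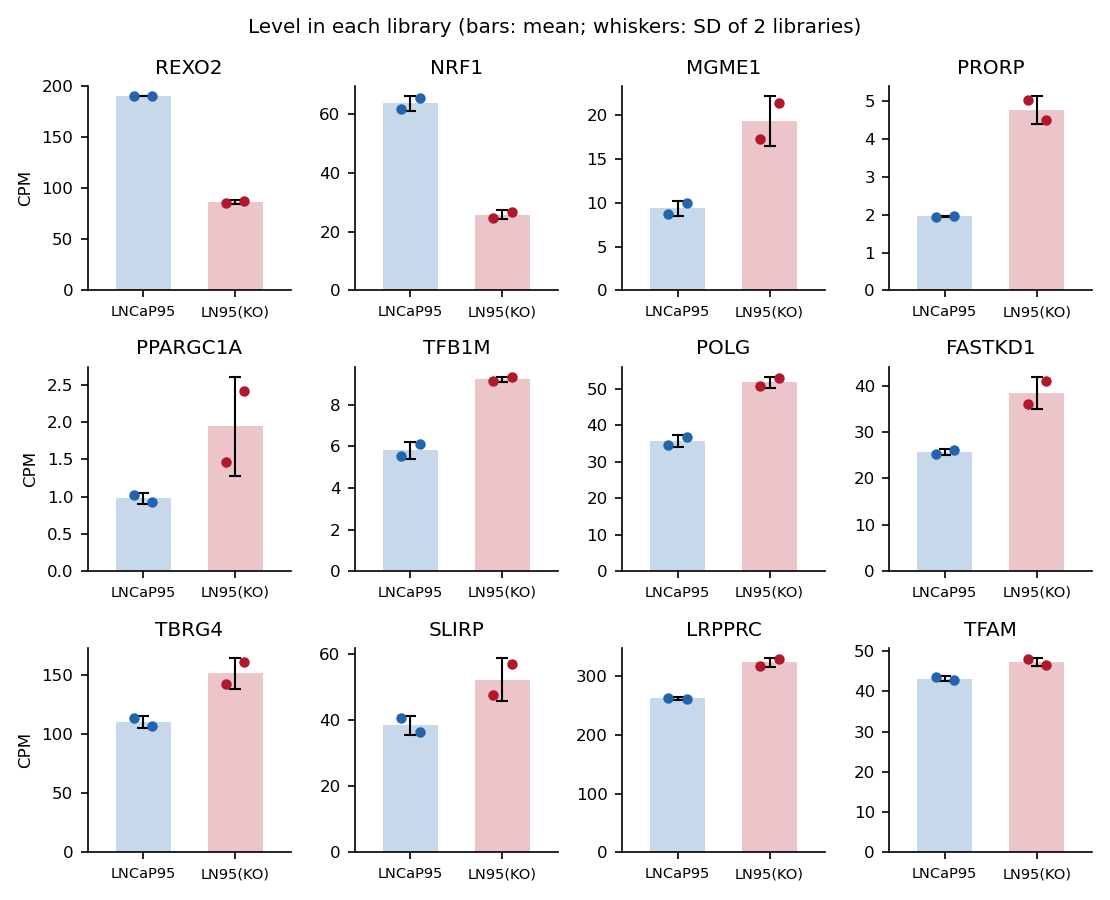
CPM in each library for 12 members, with LNCaP95 in blue and LN95(KO) in red; points are libraries, bars means and whiskers the SD of 2 libraries, on linear axes from 0. REXO2 and NRF1 are lower in both LN95(KO) libraries, the other members are higher in both, and the LN95(KO) points of PPARGC1A are far apart (26 and 44 reads).

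Within the FASTK family and GRSF1, which act on mitochondrial RNAs in RNA granules and the matrix, 2 of 7 rose (28.6%, near the share of all genes), 0 fell and the median was 0.07. TBRG4 (ENSG00000136270.13_5, chr7:45139699-45151646, minus strand, GRCh37, 14 exon blocks), also known as FASTKD4 and needed for the stability of several mitochondrial mRNAs, had 2098 and 1952 reads in LNCaP95 against 2513 and 2927 in LN95(KO). The groups did not overlap. Its mean rose from 110 ± 5.02 to 151 ± 13.0 CPM (SD, n = 2 each), or 0.46 on the log2 scale (SE 0.06, adjusted p 5.14e-06, edgeR). FASTKD1 (ENSG00000138399.17_3, chr2:170385018-170430385, minus strand, GRCh37, 16 exon blocks), another RNA-binding family member, had 466 and 478 reads against 637 and 746. It rose from 25.7 ± 0.601 to 38.4 ± 3.46 CPM (SD, n = 2 each), or 0.58 (SE 0.08, adjusted p 8.67e-06, edgeR). LN95(KO) replicate 4 was the highest library for both genes. The other members did not pass: FASTK (0.00), FASTKD2 (-0.08), which binds the large ribosomal RNA, FASTKD3 (0.07), FASTKD5 (0.16), which helps to cut precursors where no tRNA marks the junction, and the RNA granule protein GRSF1 (0.04). FASTKD5 passed without LN95(KO) replicate 4 (0.23, adjusted p 0.0459), and FASTKD2 stood at 0.01 without the same library.

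Of the 3 matched genes for cutting tRNA ends, PRORP rose (33.3%, near the 29.8% of all genes) and the others did not pass. PRORP (ENSG00000100890.15_4, chr14:35591052-35746828, plus strand, GRCh37, 11 exon blocks), the nuclease subunit of mitochondrial RNase P, had 36 and 36 reads in LNCaP95 against 89 and 82 in LN95(KO). The counts were low, close within each group and apart between them. The mean rose from 1.96 ± 0.0106 to 4.76 ± 0.378 CPM (SD, n = 2 each), which is 1.28 on the log2 scale (SE 0.20, adjusted p 3.56e-05, edgeR). Other annotated genes cover 45.9% of its exon bases, and that with the largest overlap had at most 2 reads in a library. This low count does not show how many reads were left out for lying on shared bases. TRMT10C (ENSG00000174173.6_3, chr3:101280712-101285290, plus strand, GRCh37, 3 exon blocks), the methyltransferase subunit of the same enzyme, had 947 and 836 reads against 956 and 995. It stood at 48.5 ± 4.01 against 54.3 ± 0.361 CPM (SD, n = 2 each), a log2 ratio of 0.16 (SE 0.07, adjusted p 0.0516, edgeR) that passed without LNCaP95 replicate 1 (0.25, adjusted p 0.0240). HSD17B10, the remaining RNase P subunit and no member, had 1602 and 1574 reads against 1861 and 2094 and rose by 0.35 (adjusted p 5.03e-05, edgeR), named after its value was seen. ELAC2, which cuts the other end of tRNAs, had 1912 and 2065 reads against 1776 and 1902 and a log2 ratio of -0.08 (adjusted p 0.235, edgeR).

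LONP1 (ENSG00000196365.11_3, chr19:5691845-5720583, minus strand, GRCh37, 21 exon blocks), the matrix protease that degrades TFAM among other proteins, was the most counted member. It had 6001 and 5992 reads in LNCaP95 against 6484 and 6696 in LN95(KO), with no overlap. The mean went from 326 ± 1.43 to 367 ± 0.412 CPM (SD, n = 2 each), or 0.17 on the log2 scale (SE 0.05, adjusted p 0.00412, edgeR). Adjusted p was 0.0600 without LNCaP95 replicate 1 (0.16).

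The counted RNAs of the mitochondrial genome itself were lower in LN95(KO). RNA was enriched with oligo(dT), which captures poly(A) tails, so the level of these RNAs and their tails cannot be told apart. All 13 mitochondrially encoded mRNAs were lower by sign and 12 fell (92.3%, against 30.1% of all genes), with a median of -0.55. Summed, they were at 181200 and 186900 CPM in LNCaP95 against 122300 and 118100 in LN95(KO), and mitochondrially encoded genes took 22.3% and 23.0% of gene reads against 16.3% and 15.6%. MT-CYB, encoding cytochrome b, had 294722 and 288535 reads against 134335 and 133635. It fell most and was the 1 called (-1.09, SE 0.05, adjusted p 1.80e-12, edgeR). MT-ATP8, by far the least counted of the 13, did not pass, with 747 and 535 reads against 611 and 544. How many of its reads were left out for lying also on an overlapping gene was not tested. Its log2 ratio of -0.12 (adjusted p 0.567, edgeR) turned to 0.14 without LNCaP95 replicate 1 and passed at -0.33 without LNCaP95 replicate 2. Both ribosomal RNAs fell, MT-RNR2 by 0.39 (adjusted p 2.49e-06, edgeR) and MT-RNR1 by 0.22. With the mitochondrially encoded genes taken out of the table before scaling, members that passed again numbered 21 and those called 4.

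Other nuclear lists of the same pathway had more rises than falls, with none or few calls. Over all tested genes 29.8% rose, 30.1% fell and 18.0% were called. Of 81 tested mitochondrial ribosome genes, 46 rose (56.8%) and 6 fell, with 0 called and a median of 0.20, the extremes being MRPS25 (0.87) and MRPS35 (-0.46). Of 16 tested mitochondrial tRNA synthetases, 8 rose (50%) and 1 fell (median 0.26), the fall being that of PARS2 (-0.44). Of 40 genes for RNA modification and ribosome assembly, 13 rose (32.5%, near the share of all genes) and 6 fell (median 0.11), including the RNA-binding protein C1QBP (0.51), the tRNA modifier GTPBP3 (0.66) and NGRN (-0.49). Among 30 genes for DNA upkeep and nucleotide supply, 19 rose (63.3%) and 4 fell (median 0.27), and the 2 called were the nucleases FEN1 (467 and 452 reads against 978 and 1289; 1.33) and DNA2 (133 and 99 against 258 and 305; 1.31, named after its value was seen), both of which also act in nuclear DNA replication. FBXL4, a regulator of mitochondrial turnover, fell most there (-0.81).

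Of 10 tested markers of mitochondrial mass, 9 rose and 1 fell (median 0.33), led by citrate synthase, CS (7133 and 7393 reads against 13246 and 14608; 0.97), while HSPA9 fell by 0.17 and had an adjusted p of 0.0591 without LNCaP95 replicate 1 (-0.16). Of 18 tested partners and regulators of PGC-1, 3 rose (16.7%) and 7 fell (38.9%), with a median of -0.02. They ran from PRKAA2, a catalytic subunit of AMP-activated kinase, at 0.95 to the fatty acid receptor PPARA at -0.77. Of the mass markers 90% rose and 10% fell, and of all genes tested 29.8% and 30.1%. ESRRB and ESRRG, relatives of ESRRA, did not pass the filter on low counts.

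**Figure D4:**
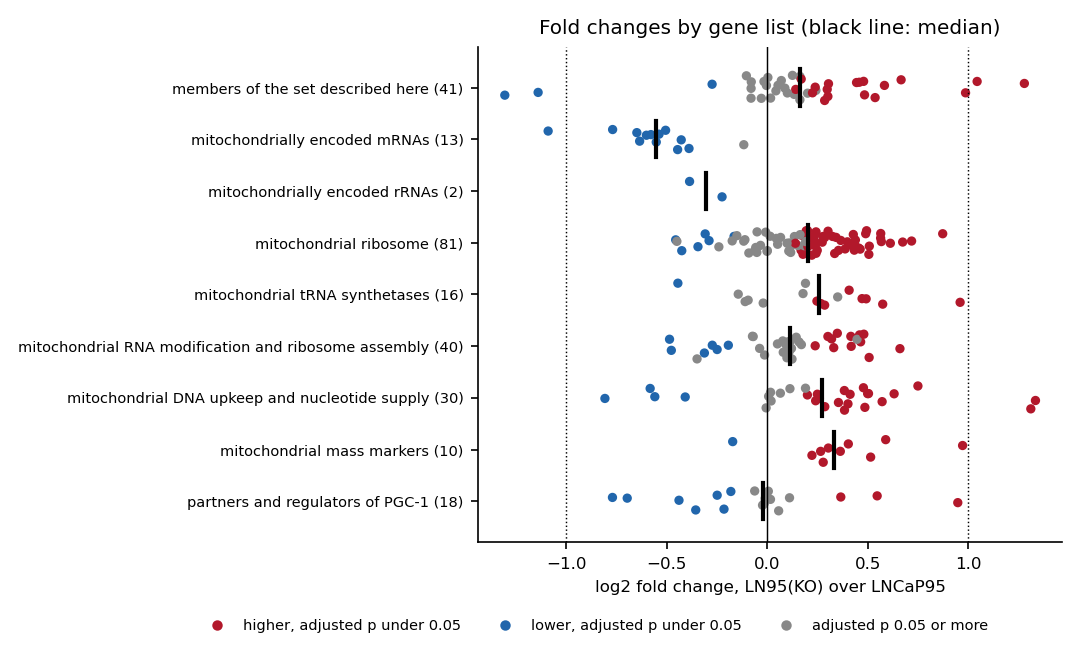
Log2 fold changes of the members and of 8 other lists, 1 point per tested gene, with the number tested in parentheses, black lines at the median and dotted lines at a 2-fold change. The mitochondrially encoded mRNAs have a median of -0.55, the members 0.16 and the mitochondrial ribosome 0.20.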

How the data were processed

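RNA-Seq was analysed in 4 libraries, 2 of LNCaP95 and 2 of LN95(KO), grouped by the genotype label. The authors deposited raw read counts for each gene. They aligned to hg19 with hisat2 (version 2.1.0), per the submitters' processing notes, and counted with htseq without using strand. Each file held 60880 genes and 5 summary lines, which were kept out, and 0 cells differed from the table of the whole series. Reads on more than 1 gene or aligned more than once are left out by htseq. Genes with overlapping exons or near copies can thus lose reads. Of the members, 11 share over 10% of their exon bases with other genes and 19 share none. Each share is over all overlapping genes together, and the gene named beside it is that with the largest overlap. TFAM, PNPT1, SLIRP, ESRRA, RNASEH1, POLRMT and MTERF1 have named pseudogenes. Positions and overlaps came from GENCODE release 44 on GRCh37, later than the release used in counting, and 59859 identifiers had a symbol and 1021 did not.

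All genes were fitted together with edgeR (version 4.0.16, R version 4.3.3; quasi-likelihood, robust, TMM, no covariate) after filterByExpr (minimum count 10, minimum total 15), which kept 15626. P-values were Benjamini-Hochberg adjusted over all of them. Calls needed an adjusted p under 0.05 and a fold over 2, as in the study, which used DESeq2. The SE is the absolute log2 fold change over the root of F. The script was tested on simulated data. Gene reads of 17330338 to 18813193 per library and a shared coefficient of variation of 4.27% set the precision. Nothing states that replicates were separate cultures, so p-values measure the spread between these libraries, which may be technical; no permutation test of 2 against 2 can give a two-sided p under 0.333.

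Members and lists were chosen with earlier results of these data known. Full values are given for called members and for the 2 members with the smallest adjusted p in each of 7 role groups, and from other lists for the called gene with the smallest adjusted p (with none called, of all tested) and the largest rise and fall. Not every gene under these rules is reported here. PHB and PECAM1, both on lists, matched no identifier in the tables used. Alternatives were DESeq2 (version 1.42.0), other scalings, filters and call rules, the table without mitochondrially encoded genes, and each library left out.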

Additional observations from a re-analysis of the deposited data

Results flagged for a closer look

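Unaligned reads took a larger share of both LN95(KO) libraries, at 8.05% and 7.71%, than of both LNCaP95 libraries, at 3.85% and 3.96%. It is given because these reads enter no comparison of the genes. The lowest LN95(KO) value was 7.71%. Its part in the changes of the 41 members was not tested.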

How the results depend on the processing

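No paired analysis was possible because LNCaP95 carries replicate numbers 1 and 2 and LN95(KO) 3 and 4. The number of genes called, 2811, became 1242 with a mean count of at least 100, 9349 with no fold criterion and 1687 under glmTreat, each a change in what is counted, and lay between 2539 and 2777 with 1 library left out. DESeq2 called 2304 and the fit without a filter 3362. The share of calls that were higher, 49.2%, was 52.6% with library totals and 46.9% with upper-quartile factors. The 4 members called became 21 with no fold criterion and 2 under glmTreat (REXO2 and NRF1), and 3 to 5 with 1 library left out. The 21 members that passed became 13 with DESeq2 (11 higher, 2 lower), whose cause was not tested, and 17 to 19 with 1 library left out; other settings gave 18 to 27. Of the 21, 13 passed without each library in turn and 12 of these also with DESeq2: TFB1M, POLG, MGME1, LRPPRC, SLIRP, PNPT1, TBRG4, FASTKD1, PRORP, ESRRA, REXO2 and NRF1. Over 449 alternative values of members 391 kept direction and side of the threshold, and the sign turned in 19, over 10 members and 0 of those that passed. These were POLRMT (0.0261 with library totals), TFB2M (0.0515 with library totals, -0.0606 to 0.0579 with 1 library left out), TEFM (-0.0218 with upper-quartile factors, -0.0258 to 0.0598 with 1 left out), MTERF4 (0.0394 with library totals, -0.0711 to 0.0399), FASTK (-0.0354 with upper-quartile factors, -0.0026 with no filter, -0.0068 with a mean count of at least 100, -0.0498 to 0.0607) and, with 1 library left out, MTERF2 (-0.0201 to 0.2033), TOP1MT (-0.1131 to 0.2083), PRIMPOL (-0.2489 to 0.0339), FASTKD2 (-0.1671 to 0.0106) and FASTKD3 (-0.0002 to 0.1438). MT-ATP8 lay between -0.3329 and 0.1385. At 17 to 44 reads per library, PPARGC1A is limited by depth.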
